A study of Mus musculus with 6 samples.

Results

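The genes described here are the mouse chemokines and their receptors: 35 ligands of the CC, CXC, CX3C and XC classes and 21 receptors, 4 of them atypical receptors (Ackr1 to Ackr4). They were picked by gene symbol, with earlier results of these data known, and 56 of the 20744 genes named in any of the deposited tables qualified. Of these 56, 52 were listed in the count tables of all 3 tissues studied and 4 (Ccl1, Cxcl3, Cxcl5 and Xcl1) in that of the fat pad alone. Cxcl2 was listed everywhere but had too few counts to be tested, which leaves 51 genes in the tests between tissues, and 43 of the 56 averaged at least 1 CPM in some tissue, CPM being counts scaled to library size with edgeR's TMM factors.

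RNA-seq was made from 6 mouse libraries, 2 each from infrapatellar fat pad (the fat cushion behind the patellar ligament of the knee), rectus femoris (a muscle of the quadriceps, called muscle below) and Achilles tendon. The sources used here give no strain, sex, age or genotype and do not say whether animals were separate or pooled; the p-values therefore cover the spread of these libraries alone, and that spread may be technical. Both fat pad titles carry the word Letrozol, which reads like the aromatase inhibitor letrozole, and the other 4 do not; if it marks a treatment, drug and tissue cannot be told apart here. What "combined" at the end of the fat pad and tendon titles means is not explained. Grouping followed the treatment label, where the 3 tissues appear, because the source and tissue labels give the fat pad for all 6 libraries.

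Chemokines are small secreted proteins that draw leukocytes along gradients by binding G protein-coupled receptors, and they are named for the spacing of their first conserved cysteines. Inflammatory chemokines such as Ccl2 and the CXCR2 ligands are induced by injury or infection and call monocytes or neutrophils, whereas homeostatic ones such as Cxcl12, Ccl19 and Ccl21 position cells in resting tissue. Atypical receptors bind chemokines without the usual G protein signal and clear, carry or store them.

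The 3 genes of the lymphoid chemokine Ccl21 that were listed could not be counted apart cleanly, which is why their sequences are shown first. Over their 402 coding bases, transcripts of Ccl21b and Ccl21d were identical and Ccl21a differed from both at 2 bases, T84A and C194T (Ccl21a base, position counted from 1 at the first base of the start codon, other base). Coding bases 54 to 224 hold both differences, in capitals, in the GENCODE M21 transcripts (build GRCm38, chromosome 4).
Ccl21a: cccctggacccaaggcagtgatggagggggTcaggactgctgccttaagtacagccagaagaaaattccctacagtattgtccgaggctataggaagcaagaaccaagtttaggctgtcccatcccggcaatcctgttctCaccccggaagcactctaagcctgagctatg
Ccl21b: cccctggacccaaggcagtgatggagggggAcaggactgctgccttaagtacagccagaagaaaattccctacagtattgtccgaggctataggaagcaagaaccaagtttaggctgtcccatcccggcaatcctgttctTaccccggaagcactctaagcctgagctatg
Of the 50-base stretches in these transcripts, 71.6% for Ccl21a, 100% for Ccl21b and 97.1% for Ccl21d also occurred in another gene, so the split between them is uncertain and Ccl21b and Ccl21d are not independent measurements. The same holds in part for Ccl27a (45.0%), Ccl27b (98.1%), Ccl19 (52.0%) and Ackr1 (20.4%). Strand use in counting was not given in the sources used here, so reads of Cxcl16 (16.9% of stretches), Ccr9 (18.0%), Xcl1 (10.8%) and Ackr4 (7.21%) cannot be told from those of antisense transcripts that overlap them.

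Total counts per library ran from 56216295 (muscle library 1) to 106319037 (fat pad library 2). A count of 0 allows up to 0.0267 to 0.0735 CPM depending on the library (3 counts, counting error only). Summed markers matched the 3 tissues, with 61151 and 67511 CPM of 6 adipocyte genes in fat pad against 251 to 2372 elsewhere, 227184 and 252230 CPM of 6 skeletal muscle genes in muscle, and 8756 and 12715 CPM of 6 tendon fibroblast genes in tendon against at most 1124 elsewhere. The tendon libraries also held 20083 and 57409 CPM of the muscle genes, against 169 and 159 in fat pad. Fat pad library 1 stood apart from library 2 in blood and marrow genes, with 1852 against 251 CPM over 8 neutrophil and marrow markers and 29341 against 9550 CPM over 6 erythroid and platelet markers, where muscle and tendon held at most 6.71 and 275 CPM.

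Chemokine genes were called higher in fat pad far more often than lower. Against muscle, 30 of the 51 tested genes were higher in fat pad, where 29.8% of all 15856 tested genes were, and 1 (Cxcl14) was lower, against 29.6% of all genes. Against tendon, 26 were higher and 5 lower (Ccl21a, Ccl21b, Ccl21d, Cx3cl1 and Cxcl14), where 27.2% and 31.4% of all genes were. A call means an adjusted p under 0.05 over all tested genes (edgeR quasi-likelihood, Benjamini-Hochberg), and calls in either direction took in 59.4% of all genes against muscle and 58.5% against tendon. The median log2 fold change of the members was 2.93 against muscle and 2.23 against tendon, beside 0.14 and -0.01 for all genes. These 2 comparisons share the fat pad libraries. Fewer members passed between tendon and muscle: 4 genes were higher in tendon (Cxcl12, Cx3cl1, Cx3cr1 and Ackr1; 13.3% of all genes) and 2 lower (Ccl6 and Ccl25; 12.7% of all genes), fewer than the 26.0% of all genes called in either direction, with a median of 0.41 beside 0.10. None of these 6 calls held without either muscle library.

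The authors' TPM columns, tested with limma on log2(TPM + 1), gave another balance over the 46 members that could be tested there. They called 20 members higher and 7 lower in fat pad than in muscle (20% and 39.0% of all genes), 13 higher and 11 lower than in tendon (10.4% and 54.1%), and 13 higher and 0 lower in tendon than in muscle (28.3% and 3.39%). In muscle and tendon the TPM columns do not follow the counts: across genes, the ratio of library 2 to library 1 correlated at 0.985 between the 2 units in fat pad but at -0.159 in muscle and -0.206 in tendon. Calls over muscle that were lost there were those of Ackr2, Ccl22, Ccl24, Ccr2, Cx3cl1, Cxcr3 and Cxcr5, and calls over tendon those of Ackr3, Ccl12, Ccl2, Ccl22, Ccl25, Ccr7, Cx3cr1, Cxcl13 and Cxcr3. Over tendon, Ccr2 and Cxcr5 turned direction, and so did Ccl6 between tendon and muscle, where the Ccl25 call was lost. In whole-tissue RNA, fewer cells of a type and less RNA per cell cannot be told apart.

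**Figure D1:**
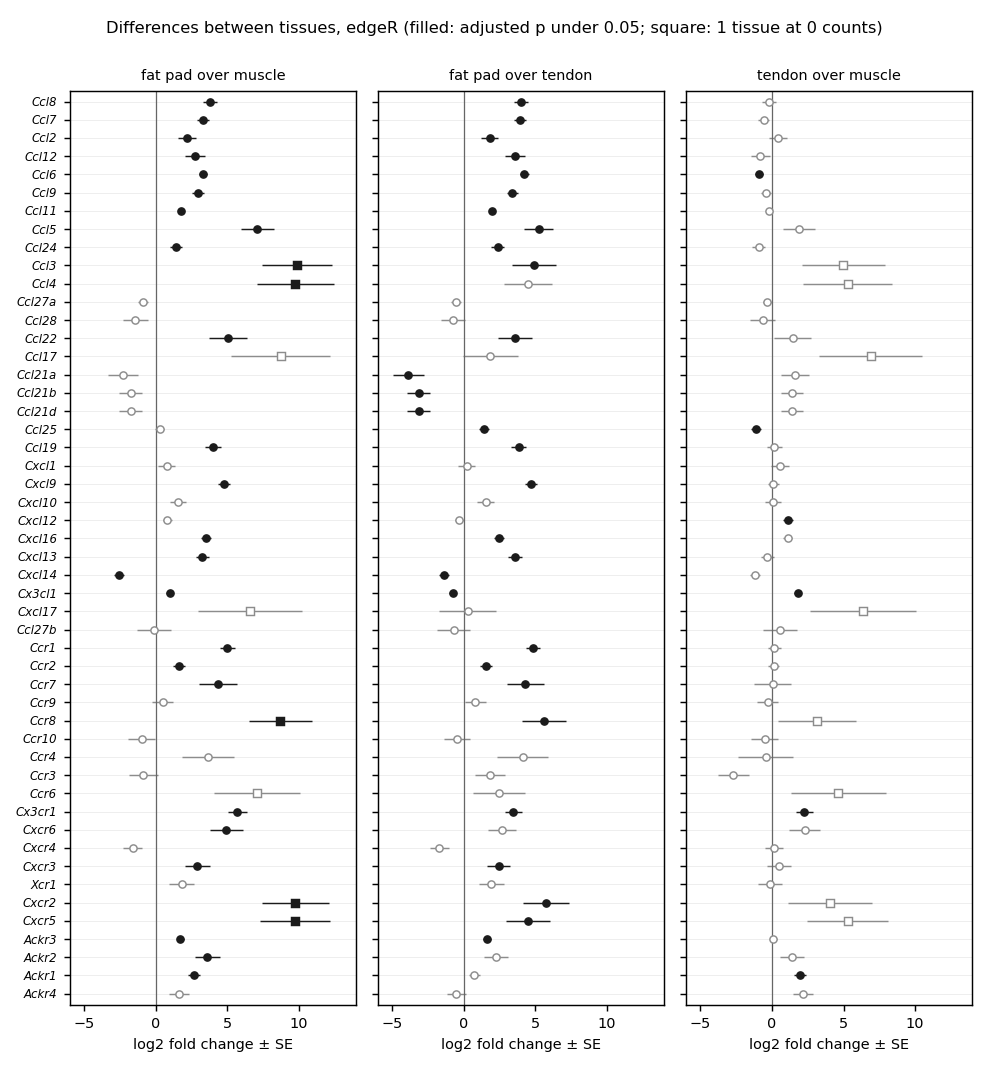
Log2 fold change with its standard error (x axis) of the tested chemokine genes reported here (y axis) in the 3 comparisons; filled symbols passed an edgeR adjusted p of 0.05 and squares mark genes with 0 counts in both libraries of 1 of the tissues compared, whose fitted size is not interpretable. Nearly all filled symbols in the first 2 panels lie to the right of 0, whereas the third holds 6 filled symbols.

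CCR2 ligands call monocytes out of the marrow and into tissue. The genes listed here under that receptor (Ccl2, Ccl7, Ccl8 and Ccl12) were all higher in fat pad, 4 of 4 against muscle and 4 of 4 against tendon. Over all genes, 29.8% were higher than in muscle and 27.2% than in tendon. The same shares stand behind the counts of the other ligand groups below. The group was set by list, and which receptor Ccl8 acts on in mouse was not examined. Ccl8 (monocyte chemoattractant protein 2) stood at 38.9 and 60.7 CPM in fat pad, against 5.15 and 2.03 in muscle and 3.81 and 2.43 in tendon. Both fat pad libraries lay far above all 4 others. Its log2 fold change was 3.80 ± 0.51 (SE) over muscle (edgeR adjusted p = 0.000774) and 3.99 ± 0.51 over tendon (edgeR adjusted p = 0.000655). Ccl7 followed at 14.0 and 16.6 CPM in fat pad against 0.742 to 1.89 in the other 4 libraries, and Ccl12 at 2.90 and 4.46 CPM against 0.206 to 0.735. Ccl2, the prototype of the group, was closest between tissues, at 5.75 and 6.08 CPM in fat pad, against 1.84 and 0.705 in muscle and 2.31 and 1.07 in tendon. Its call over muscle was lost without fat pad library 2 or muscle library 2, as was that of Ccl12, and its call over tendon without either fat pad library, without tendon library 2 and with library totals.

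A group of 7 tested inflammatory CC ligands and eotaxins, Ccl3, Ccl4, Ccl5, Ccl6, Ccl9, Ccl11 and Ccl24, followed the same pattern: 7 of 7 were higher in fat pad than in muscle and 6 of 7 than in tendon. Ccl6, a CC chemokine made by macrophages and other myeloid cells, stood at 166 and 271 CPM in fat pad, against 21.8 and 22.4 in muscle and 13.1 and 10.4 in tendon. The tissues did not overlap in any pairing. The fat pad was higher by 3.31 ± 0.29 log2 units than muscle (edgeR adjusted p = 0.000129) and by 4.22 ± 0.30 than tendon (edgeR adjusted p = 9.09e-05). Its close relative Ccl9 read 83.0 and 178 CPM in fat pad, against 19.4 and 14.0 in muscle and 14.0 and 10.8 in tendon. The eosinophil attractant Ccl11 (eotaxin) was less uneven, at 76.9 and 89.6 CPM in fat pad, against 23.6 and 25.8 in muscle and 18.3 and 24.0 in tendon. The second eotaxin, Ccl24, read 6.45 and 12.6, 4.09 and 2.93, and 1.60 and 2.06 CPM in the same order, and its call over muscle was lost without fat pad library 2 or either muscle library.

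The remaining 3 of this group, which draw T cells, NK cells and monocytes, had at most 37 counts in any muscle or tendon library. Ccl5 (RANTES) read 13.5 and 8.92 CPM in fat pad, against 0 and 0.154 in muscle and 0.477 and 0.110 in tendon, with a fat pad excess over tendon of 5.24 ± 1.01 log2 units (edgeR adjusted p = 0.00398). In the TPM columns its values were 43.7 and 29.8 in fat pad and 4.09 and 17.0 in tendon, and the call was lost at a pseudocount of 0.1, where the difference was 2.10. Ccl3 read 2.20 and 0.978 CPM in fat pad and had 0 counts in both muscle libraries, so that its fat pad mean was at least 22.8-fold higher (3 counts per muscle library as the bound; edgeR adjusted p = 0.0152). Ccl4, at 2.37 and 0.622 CPM against 0 counts in muscle, was at least 21.4-fold higher. In tendon, library 1 had 8 counts of Ccl3 and 10 of Ccl4 and library 2 had 0 of both, and Ccl4 was not called there. Both calls over muscle were lost without fat pad library 1 or either muscle library. The Ccl3 call over tendon was lost without either fat pad library or tendon library 2.

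Genes listed here as ligands of CCR4, CCR6, CCR8 and CCR10 (Ccl17, Ccl22, Ccl27a and Ccl28 among those tested) were low in all 3 tissues. Such ligands act on T cell subsets and on lymphocytes of skin and mucosa. In each fat pad comparison 1 of 4 tested was higher, close to the share of all genes (29.8% against muscle, 27.2% against tendon). That one, Ccl22 (a CCR4 ligand of dendritic cells and macrophages), read 2.11 and 0.969 CPM in fat pad, against 0 and 0.0881 in muscle and 0.142 and 0.110 in tendon. Its log2 fold change was 5.04 ± 1.32 over muscle (edgeR adjusted p = 0.0150) and 3.59 ± 1.17 over tendon (edgeR adjusted p = 0.0337), and the call was lost over muscle without fat pad library 1 or muscle library 1, and over tendon without any 1 of the 4 libraries or with the library number as a block. Ccl27a, a skin chemokine, ran the other way without passing, at 3.44 and 4.30 CPM in fat pad, against 8.16 and 6.01 in muscle and 5.27 and 6.03 in tendon; the fat pad difference from muscle was -0.87 ± 0.32 log2 units (edgeR adjusted p = 0.0527) and from tendon -0.54 ± 0.32 (edgeR adjusted p = 0.184). Ccl28 read 0.575 and 0.622, 0.858 and 2.33, and 0.425 and 1.61 CPM, and Ccl17 0.155 and 1.30, 0 and 0, and 0.399 and 0 CPM.

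The CCR7 and CCR9 ligands, which guide lymphocytes and dendritic cells to lymphoid organs and thymocytes in the thymus, split in direction. Ccl21a, which lymphatic endothelium and lymphoid stroma make, was highest in tendon, at 52.9 and 67.5 CPM, against 20.2 and 19.5 in muscle and 0.398 and 7.83 in fat pad. No 2 tissues overlapped, and within the fat pad library 1 lay far below library 2. The fat pad was lower than tendon by a log2 fold change of -3.86 ± 1.10 (edgeR adjusted p = 0.0203), which was -2.88 without fat pad library 1 and -7.24 without library 2. Neither the difference from muscle, -2.26 ± 1.03 (edgeR adjusted p = 0.0970), nor that of tendon over muscle, 1.60 ± 1.00 (edgeR adjusted p = 0.270), passed. Ccl21b read 0.299 and 1.90, 4.07 and 3.37, and 7.41 and 12.3 CPM in fat pad, muscle and tendon, and Ccl21d counts lay within 1 count of these in every library.

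The other CCR7 ligand, Ccl19, was higher in fat pad than in both tissues, at 4.12 and 6.18 CPM against 0.270 and 0.374 in muscle and 0.374 and 0.344 in tendon. Its log2 fold change was 3.99 ± 0.55 over muscle (edgeR adjusted p = 0.000877) and 3.84 ± 0.54 over tendon (edgeR adjusted p = 0.000972). So the 2 ligands of one receptor lay in opposite order between fat pad and tendon. Lymphatic endothelial markers also split: Prox1, the transcription factor of lymphatic identity, read 0.708 and 0.622 CPM in fat pad, against 2.50 and 2.71 in muscle and 24.4 and 7.97 in tendon, and Flt4 1.33 and 1.67, 10.5 and 15.6, and 41.0 and 21.5 CPM, while Lyve1, which macrophages also express, was 127 and 167 CPM in fat pad against at most 33.9 elsewhere. Of the 4 markers of this list, 2 were called higher in fat pad than in each tissue (Lyve1 and Pdpn) and 2 lower (Prox1 and Flt4). Over all genes these shares were 29.8% and 29.6% against muscle, and 27.2% and 31.4% against tendon. The sum over the list was 176 and 223, 45.1 and 48.0, and 114 and 67.8 CPM, none at 0. The part of these markers in the Ccl21 difference was not tested. The CCR9 ligand Ccl25 read 8.48 and 9.21 CPM in fat pad, against 5.81 and 8.65 in muscle and 3.80 and 2.80 in tendon. It was higher in fat pad than in tendon and did not pass against muscle (0.29 ± 0.33; edgeR adjusted p = 0.466), a difference whose sign turned in the TPM columns.

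CXCR2 ligands, the neutrophil attractants, were scarce. Cxcl1 (KC) read 1.53 and 1.72 CPM in fat pad, against 1.10 and 0.793 in muscle and 0.902 and 1.91 in tendon, with overlap between fat pad and tendon and no call. Cxcl2 had between 0 and 14 counts in every library. Cxcl3 and Cxcl5 were listed in the fat pad alone, with 86 and 73 counts in library 1 and 0 of both in library 2. Promoters of 3 of these genes, and of Ccl9, carried a kappa-B motif (GGG, any 2 bases, then TTTCC, on either strand), and they are shown because ligands of a single receptor share it. Each line gives the 150 bases before the start site, 5′ to 3′ on the gene's strand, from RefSeq on GRCm38.p6, with matches in capitals.
Cxcl1 (chr5:90891095-90891244, plus strand): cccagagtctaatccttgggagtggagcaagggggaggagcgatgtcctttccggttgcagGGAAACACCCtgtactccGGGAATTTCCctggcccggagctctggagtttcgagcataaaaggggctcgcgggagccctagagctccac
Cxcl2 (chr5:90903749-90903898, plus strand): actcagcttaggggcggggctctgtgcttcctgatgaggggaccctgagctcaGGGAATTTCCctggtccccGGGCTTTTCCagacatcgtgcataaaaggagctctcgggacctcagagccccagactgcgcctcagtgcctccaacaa
Cxcl3 (chr5:90785951-90786100, plus strand): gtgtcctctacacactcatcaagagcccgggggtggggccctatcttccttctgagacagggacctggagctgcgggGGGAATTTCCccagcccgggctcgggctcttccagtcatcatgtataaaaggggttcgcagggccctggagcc
Ccl9 (chr11:83578637-83578786, minus strand): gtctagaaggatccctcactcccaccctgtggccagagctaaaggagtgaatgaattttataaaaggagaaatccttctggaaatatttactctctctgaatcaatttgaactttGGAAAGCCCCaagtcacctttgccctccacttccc
In windows from 250 bases before to 50 after the start, the motif occurred in 535 of 32851 promoters (1.63%), or 1.90% of 27025 genes, and among members in Ccr3 besides these 4, 5 of the 43 with a promoter entry. The 3 CXCR2 ligands that share it stayed under 2 CPM in every library whose count table lists them, whereas Ccl9 reached 178 CPM. The interferon element (GAAA, any 2 bases, then GAAA) was found at Ccl19, Cxcl10 and Cxcl14 (3.44% of promoters, 3.99% of genes), and the AP-1 site TGAGTCA at 7 members (5.20% of promoters, 5.95% of genes). These are matches of letters only.

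The CXCR3 ligands, interferon-induced attractants of activated T and NK cells, were unequal. Cxcl9 read 37.7 and 60.7 CPM in fat pad, against 2.21 and 1.32 in muscle and 2.24 and 1.48 in tendon. The highest of the other 4 libraries stood at 2.24 CPM. The log2 fold change was 4.80 ± 0.42 over muscle (edgeR adjusted p = 0.000122) and 4.72 ± 0.41 over tendon (edgeR adjusted p = 0.000154). Cxcl10 read 2.87 and 2.07, 0.662 and 0.991, and 1.00 and 0.715 CPM, above both tissues in each fat pad library without passing either test.

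Cxcl12, the CXCR4 ligand of stromal cells that retains progenitors and lymphocytes, was the most counted chemokine in every tissue, at 190 and 334 CPM in fat pad, against 140 and 159 in muscle and 374 and 274 in tendon. Fat pad and tendon overlapped. It was higher in tendon than in muscle by 1.11 ± 0.32 log2 units (edgeR adjusted p = 0.0456). That call was lost with DESeq-type (RLE) size factors, with the library number as a block, and without tendon library 1 or either muscle library. In the TPM columns it was lost at a pseudocount of 0.1. Cxcl12 did not pass for fat pad over muscle (0.81 ± 0.32, edgeR adjusted p = 0.0654) or over tendon (-0.31 ± 0.32, edgeR adjusted p = 0.437). Both fat pad values turn sign under an alternative: over muscle in the TPM columns (-0.28), and over tendon without fat pad library 1 (0.11). Cxcl16, a membrane-bound CXCR6 ligand and scavenger receptor, read 45.9 and 68.3 CPM in fat pad, against 3.90 and 5.88 in muscle and 8.26 and 12.5 in tendon, with no overlap between tissues. Its log2 fold change was 3.54 ± 0.36 over muscle (edgeR adjusted p = 0.000210) and 2.46 ± 0.34 over tendon (edgeR adjusted p = 0.000860), and tendon over muscle missed the threshold (1.08 ± 0.33; edgeR adjusted p = 0.0516). Cxcl13, the CXCR5 ligand that attracts B cells, read 5.81 and 5.82 CPM in fat pad against 0.454 to 0.686 in the other 4, with 3.58 ± 0.47 over tendon (edgeR adjusted p = 0.000701); in the TPM columns that difference was 0.21 and not called.

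Cxcl14, a conserved homeostatic chemokine with no settled receptor, was the one ligand called lower in fat pad than in both tissues. It read 9.45 and 15.4 CPM in fat pad, against 90.1 and 55.7 in muscle and 25.3 and 39.5 in tendon, with no overlap in any pairing. Its log2 fold change was -2.55 ± 0.37 over muscle (edgeR adjusted p = 0.00111) and -1.38 ± 0.36 over tendon (edgeR adjusted p = 0.0142); the second was lost without fat pad library 1 or tendon library 2. Cx3cl1 (fractalkine), a membrane-tethered ligand of endothelium and other cells, was highest in tendon, at 12.1 and 11.8 CPM, against 7.04 and 6.87 in fat pad and 3.60 and 3.35 in muscle. Tendon was higher than muscle by 1.79 ± 0.25 log2 units (edgeR adjusted p = 0.00843) and fat pad than muscle by 1.00 ± 0.25 (edgeR adjusted p = 0.0120), which in the TPM columns was 0.05 and not called and was lost without either muscle library. Fat pad was lower than tendon by a log2 fold change of -0.79 ± 0.25 (edgeR adjusted p = 0.0292), a call lost without any 1 of the 6 libraries, with RLE size factors, with the library number as a block and with the 2 tissues alone. Blood endothelial markers ran in another order, summing over 5 genes, none at 0, to 249 and 156 CPM in fat pad, against 345 and 447 in muscle and 747 and 613 in tendon, and their part in the Cx3cl1 difference was not tested. Xcl1 (lymphotactin), listed in fat pad alone, read 0.819 and 0.471 CPM. The mucosal chemokine Cxcl17 had at most 37 counts in a library, and Ccl27b, a copy of Ccl27a, at most 0.357 CPM.

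**Figure D2:**
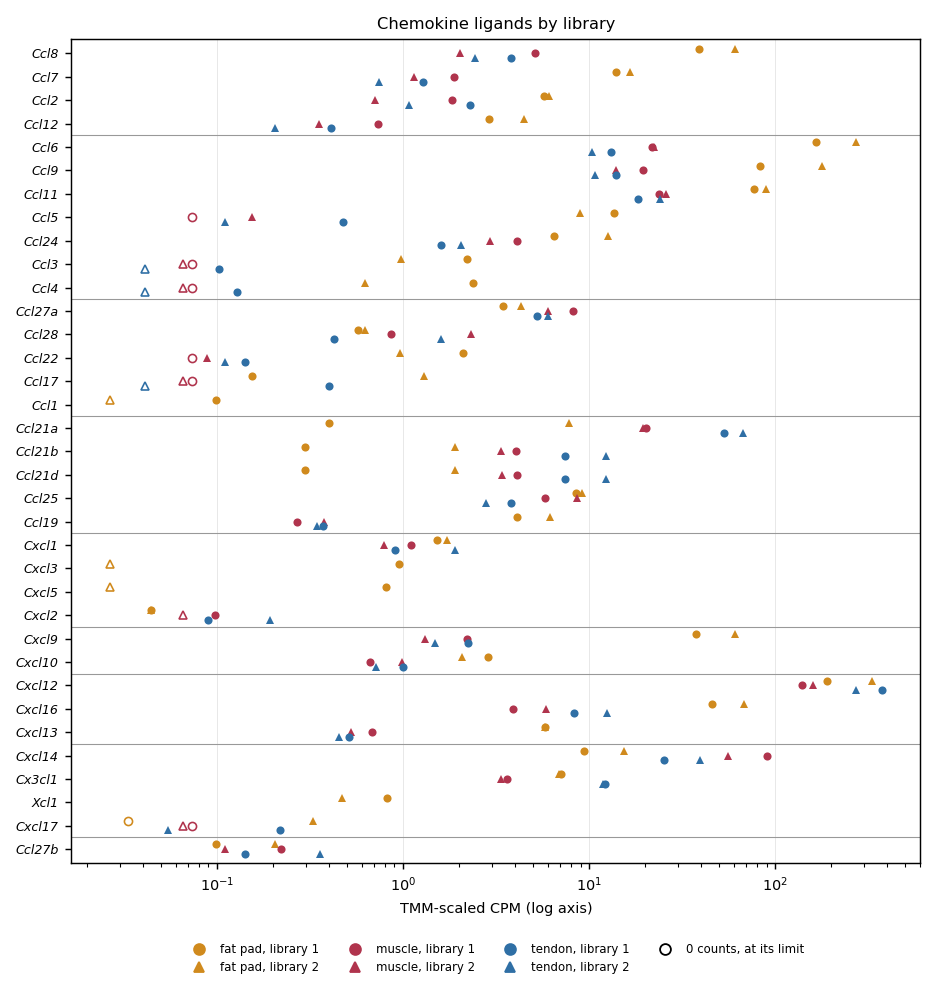
TMM-scaled CPM (log x axis) of the 35 chemokine ligands in each library, with tissues in colour, library 1 as circles and library 2 as triangles; open symbols are 0 counts drawn at the limit a count of 0 allows, and lines part the receptor groups. The fat pad lies to the right for Ccl8, Ccl7, Ccl6 and Ccl9, whereas Ccl21a, Ccl21b, Ccl21d and Cxcl14 have it on the left.

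Of the 10 CC receptors, 5 were higher in fat pad than in muscle and the same number than in tendon, where 29.8% and 27.2% of all genes were; the same shares stand behind the counts of the other receptor groups below. Ccr1, the receptor of Ccl3, Ccl6 and Ccl9 on monocytes, macrophages and neutrophils, read 32.8 and 33.8 CPM in fat pad, against 0.907 and 1.15 in muscle and 1.66 and 0.618 in tendon. It thus lay far apart in the fat pad, by 5.02 ± 0.50 log2 units over muscle (edgeR adjusted p = 0.000205) and 4.86 ± 0.49 over tendon (edgeR adjusted p = 0.000246). In the TPM columns tendon library 2 stood at 32.3 against 44.9 and 47.7 in fat pad, and the Ccr1 call over tendon was lost at a pseudocount of 0.1 (1.61) and without a filter (1.53). Ccr2, which monocytes need to leave the marrow, stood at 26.8 and 19.8 CPM in fat pad, against 8.50 and 6.34 in muscle and 11.0 and 5.06 in tendon. It was called higher in fat pad than in both (not without fat pad library 1, nor, against muscle, without muscle library 2), but its TPM of 7.14 and 5.46 in fat pad and 5.35 and 18.0 in tendon had the opposite order of means.

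Ccr7, the receptor of Ccl19 and Ccl21 on dendritic cells and naive T cells, read 3.37 and 1.69 CPM in fat pad, against 0 and 0.242 in muscle and 0.103 and 0.151 in tendon. The receptor and its ligand Ccl19 were thus both higher in the fat pad, and Ccl21a was not. The Ccr7 call was lost without fat pad library 1 in both comparisons and, over tendon, without either tendon library. Ccr8 had 68 and 77 counts in fat pad, 0 in both muscle libraries and 2 and 0 in tendon, which makes the fat pad mean at least 10.3-fold higher than muscle (edgeR adjusted p = 0.0167), a call lost on leaving out any 1 of these 4 fat pad and muscle libraries. Ccr3, Ccr4, Ccr6, Ccr9 and Ccr10 stayed at or under 1.18 CPM in every library and were not called.

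Among the CXC, CX3C and XC receptors, 5 of 7 were higher in fat pad than in muscle and 4 of 7 than in tendon. Cx3cr1, the fractalkine receptor of monocytes and resident macrophages, read 20.8 and 56.4 CPM in fat pad, against 0.392 and 1.06 in muscle and 3.93 and 3.05 in tendon. The tissues did not overlap and stood in the order fat pad, tendon, muscle. The log2 fold change was 5.72 ± 0.68 over muscle (edgeR adjusted p = 0.000432), 3.47 ± 0.59 over tendon (edgeR adjusted p = 0.00231) and 2.25 ± 0.61 for tendon over muscle (edgeR adjusted p = 0.0376). In the TPM columns the difference from tendon was 0.90 and not called. The receptor and its ligand thus differed in order, Cx3cl1 being highest in tendon. Cxcr6, the Cxcl16 receptor, read 3.85 and 4.59, 0 and 0.264, and 0.670 and 0.660 CPM, and Cxcr3 2.91 and 1.53, 0.294 and 0.286, and 0.618 and 0.192 CPM. The Cxcr3 call over muscle was lost without fat pad library 1 or either muscle library, and over tendon without fat pad library 1, tendon library 2 or either muscle library, with library totals, and with the 2 tissues alone.

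Cxcr2, the neutrophil receptor, read 2.33 and 0.640 CPM in fat pad, had 0 counts in muscle and 4 and 0 in tendon, at least 21.3-fold above muscle (edgeR adjusted p = 0.0138). Its call over muscle was lost without fat pad library 1 or muscle library 2. Over tendon its log2 fold change was 5.74 ± 1.59 (edgeR adjusted p = 0.0231), a call lost without fat pad library 1 or tendon library 2. Its TPM of 1.72 and 0.487 in fat pad and 0.361 and 8.01 in tendon had the opposite order of means. Muscle had no TPM value for Cxcr2, so it was not tested in that unit. Cxcr5, the Cxcl13 receptor of B cells, read 1.49 and 1.46 CPM in fat pad and 0 counts in muscle, at least 21.1-fold higher (lost without any 1 of the 4 libraries), and had 10 and 0 counts in tendon, where its TPM of 4.05 in library 2 gave the opposite order of means. Its call over tendon was lost without either fat pad library or tendon library 2, with library totals and with the library number as a block. Cxcr4, the receptor of the most counted ligand Cxcl12, was the one receptor of more than 1 CPM that lay lower in fat pad than in every other library, at 0.520 and 1.16 CPM against 3.41 and 1.74 in muscle and 3.57 and 1.98 in tendon, and it passed neither test. Xcr1, a marker of cross-presenting dendritic cells and the Xcl1 receptor, read 1.12 and 2.32, 0.760 and 0.220, and 0.528 and 0.371 CPM, without a call.

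**Figure D3:**
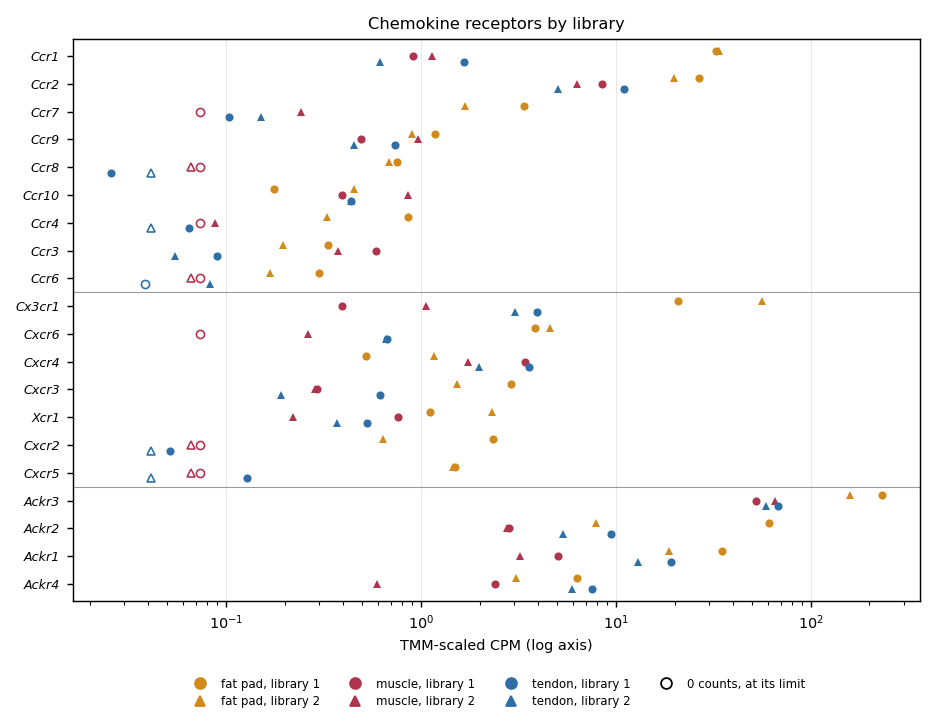
TMM-scaled CPM (log x axis) of the chemokine receptors reported here in each library, drawn as for the ligands. Ccr1 and Cx3cr1 lie above 20 CPM in both fat pad libraries and under 4 CPM elsewhere, while Cxcr4 has the fat pad on the left.

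Leukocyte marker lists differed in how far they followed these groups. The 6 macrophage markers summed to 918 and 1468 CPM in fat pad, against 214 and 206 in muscle and 205 and 124 in tendon; 4 of 6 were higher in fat pad than in each tissue, while Mrc1 and Cd163, also macrophage genes, were not called and lay below both muscle libraries in both fat pad libraries (35.9 and 52.5 against 64.5 and 67.5 CPM for Mrc1, 36.4 and 40.4 against 46.4 and 46.3 CPM for Cd163). Vsig4 was the extreme, at 350 and 653 CPM in fat pad and at most 1.00 elsewhere. All 8 neutrophil and marrow markers and all 5 B and plasma cell markers were higher in fat pad than in each tissue, and 3 of 6 T and NK cell markers. Of all genes, 29.8% were higher in fat pad than in muscle and 27.2% than in tendon. The B and plasma sum was 89.3 and 79.1 CPM in fat pad and at most 1.10 elsewhere, and the T and NK sum 23.6 and 17.3 CPM against at most 3.92, with Cd8a and Ncr1 at 0 in muscle. None of the 5 dendritic cell markers was called in any comparison. Calls in either direction took in 59.4% of all genes for fat pad over muscle, 58.5% over tendon and 26.0% for tendon over muscle. The part of these cells in the chemokine differences was not tested.

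Of the 4 atypical receptors, 3 were higher in fat pad than in muscle and 1 than in tendon. Ackr3, a scavenger of Cxcl12 on stromal and endothelial cells, read 232 and 159 CPM in fat pad, against 52.6 and 65.5 in muscle and 67.9 and 59.1 in tendon, higher in fat pad by 1.73 ± 0.25 log2 units over muscle (edgeR adjusted p = 0.00109) and 1.62 ± 0.25 over tendon (edgeR adjusted p = 0.00146). The second fell to 0.47 and was not called in the TPM columns. Ackr1, the Duffy antigen of venular endothelium and red cell precursors, read 35.1 and 18.7 CPM in fat pad, against 5.02 and 3.21 in muscle and 19.2 and 13.0 in tendon. Fat pad and tendon overlapped (0.74 ± 0.38; edgeR adjusted p = 0.135; the sign turned in the TPM columns, -0.58), and tendon was higher than muscle by 1.97 ± 0.40 (edgeR adjusted p = 0.0180). Ackr2, the decoy of inflammatory CC chemokines on lymphatic endothelium and other cells, was uneven between the fat pad libraries. It read 61.2 and 7.87 CPM in fat pad, against 2.84 and 2.75 in muscle and 9.39 and 5.35 in tendon. Its log2 fold change over muscle was 3.62 ± 0.90 (edgeR adjusted p = 0.0116), 1.53 without fat pad library 1 and 4.45 without library 2, and was not called without either muscle library, and 2.23 ± 0.83 over tendon did not pass (edgeR adjusted p = 0.0548). Ackr4, the scavenger of Ccl19, Ccl21 and Ccl25, read 6.31 and 3.06, 2.40 and 0.595, and 7.59 and 5.98 CPM and was not called; tendon over muscle was 2.18 ± 0.70 (edgeR adjusted p = 0.0592).

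Both members lower in tendon than in muscle were CC ligands. Ccl6, at 13.1 and 10.4 CPM in tendon against 21.8 and 22.4 in muscle, was lower by a log2 fold change of -0.91 ± 0.27 (edgeR adjusted p = 0.0484), and Ccl25 by -1.13 ± 0.33 (edgeR adjusted p = 0.0470). Neither call held with library totals in place of TMM, without a filter on low counts or with the library number as a block, and Ccl6 was 0.93 higher in tendon in the TPM columns. Of the abundant members not called, Ccl11 differed by -0.23 ± 0.20 (edgeR adjusted p = 0.422), Ccl9 by -0.43 ± 0.37 (edgeR adjusted p = 0.420), Ackr3 by 0.11 ± 0.24 (edgeR adjusted p = 0.774), Ccr2 by 0.11 ± 0.40 (edgeR adjusted p = 0.852) and Cxcl14 by -1.17 ± 0.36 (edgeR adjusted p = 0.0519).

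To compare genes within a tissue, counts were divided by the transcript length implied by the fat pad TPM column. On that length-scaled basis 30 ligands made up the pool, and its leading members differed by tissue. In fat pad Ccl8 held 23.7% (mean of 2 libraries), Ccl6 19.9%, Ccl11 19.3% and Ccl9 9.07%, while Cxcl12, first by CPM, held 4.66%. In muscle Ccl11 (19.6%), Ccl21a (19.4%) and Cxcl14 (18.5%) led and were close to equal. In tendon Ccl21a alone held 40.3%, before Cxcl12 (14.2%) and Ccl11 (11.4%), and Ccl21b and Ccl21d added 6.54% and 6.53%. Of the length-scaled signal of the 17 conventional receptors, Ccr1 held 47.3% in fat pad, before Cx3cr1 (13.3%), whereas Cxcr4 led in muscle (32.1%) and tendon (30.8%), before Ccr2 (17.5% and 16.2%). Ackr3 held most of the atypical receptor signal in each tissue, at 78.4%, 88.0% and 68.8%. These shares carry no test.

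**Figure D4:**
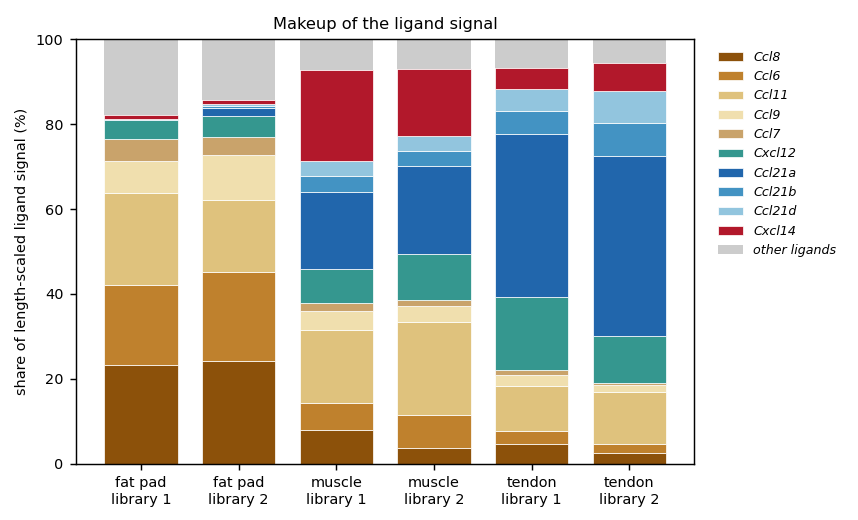
Share (%, y axis) of the length-scaled signal of 30 ligands in each of the 6 libraries (x axis), with the 10 named ligands in colour and the rest in grey. Both fat pad libraries are mostly Ccl8, Ccl6, Ccl11 and Ccl9, and both tendon libraries have Ccl21a as the widest band.

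The 2 fat pad libraries differed from each other in more chemokine genes than the other pairs did. Among members whose higher library had 50 counts or more, 18 of 50 were at least 2-fold apart in fat pad, where 14.4% of all genes were, against 4 of 26 in muscle (3.79% of all genes) and 6 of 31 in tendon (12.5% of all genes). Of the 18, 9 were higher in library 2 (5.64% of all genes) and 9 lower (8.75%). Intervals below are exact 95% intervals that cover counting error only, and library pairs carry no test.

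Library 1 was higher in the neutrophil receptor Cxcr2 by 3.65-fold (2.78 to 4.83), and in Ccl4 by 3.80-fold (2.89 to 5.06), Ccl3 by 2.25-fold, Ccl22 by 2.18-fold and Ccr4 by 2.62-fold. Cxcl3 and Cxcl5 had 0 counts in library 2; set against a floor of 3 counts there, they were at least 35.7- and 30.3-fold higher, and the exact intervals of the ratio start at 28.4 and 24.0. Ackr2 was 7.78-fold higher (7.24 to 8.36) and Ackr4 2.06-fold. In library 2, Ccl21a was 19.7-fold higher (14.1 to 28.3), Ccl17 8.38-fold (4.84 to 15.7) and Ccl21b and Ccl21d 6.37- and 6.40-fold. Ccl9, Cx3cr1, Cxcr4, Xcr1 and Ccr10 were 2.15-, 2.72-, 2.24-, 2.08- and 2.56-fold higher there. The neutrophil and marrow markers were higher in library 1 and the macrophage markers in library 2, and their part in these gaps was not tested.

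In muscle, library 2 was lower in Ccl8 (2.54-fold), Ccl2 (2.61-fold) and Ackr4 (4.04-fold) and higher in Ccl28 (2.72-fold); 2.11% of all genes were higher and 1.68% lower there by that measure. In tendon, library 2 was lower in Ccr1 (2.69-fold), Ccr2 (2.17-fold) and Ccl2 (2.15-fold) and higher in Ccl28 (3.78-fold) and Cxcl1 (2.12-fold), where 4.34% of all genes were higher and 8.13% lower. The macrophage marker sum was 205 and 124 CPM in the same 2 libraries, and its part in these gaps was not tested.

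**Figure D5:**
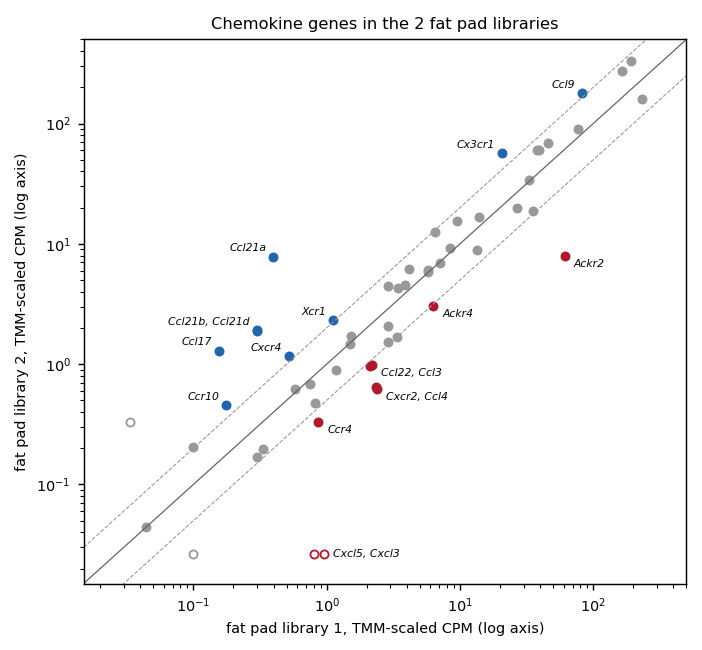
TMM-scaled CPM of the chemokine genes in fat pad library 1 (x axis, log) and library 2 (y axis, log); the solid line is equality, dashed lines are 2-fold, blue and red mark the 18 genes at least 2-fold apart with at least 50 counts, and open symbols have 0 counts in 1 library, drawn at its limit. Ackr2, Cxcl3 and Cxcl5 lie farthest below the line and Ccl21a farthest above it.

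Genes that act with the chemokines were described from lists of 63 genes in all. Shares over all genes, against which these counts stand, were 29.8% higher and 29.6% lower in fat pad than in muscle, and 27.2% and 31.4% than in tendon. Of 16 genes that carry the receptor signal (G protein subunits, phospholipases, Rac and its activators), 10 were higher and 2 lower in fat pad than in muscle, and 8 higher and 3 lower than in tendon. Rac2, the Rac GTPase of blood cells that drives their migration, read 56.9 and 34.1 CPM in fat pad, against 4.17 and 3.77 in muscle and 4.48 and 4.16 in tendon. Of 10 genes that switch the signal off, 3 were higher and 5 lower than in muscle, and 3 higher and 7 lower than in tendon. The share higher was thus close to that of all genes and the share lower was above it. The median log2 fold change of this list was -0.62 against muscle and -1.21 against tendon. Rgs2, which shortens G protein signals, had the largest change over muscle, at 573 and 550 CPM in fat pad, against 11.3 and 12.5 in muscle and 24.2 and 52.1 in tendon. The receptor kinase Grk2 lay the other way, at 12.4 and 12.2 CPM in fat pad, against 104 and 97.6 in muscle and 73.1 and 90.3 in tendon, and was named after its value was seen.

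Of 10 tested related ligands and receptors outside the symbol rule, 7 were higher and 1 lower in fat pad in each comparison. Pf4 and Ppbp, the platelet chemokines also known as Cxcl4 and Cxcl7, read 106 and 159, 15.2 and 10.6, and 14.3 and 12.4 CPM and 23.9 and 9.90, 0.196 and 0.176, and 0.0515 and 0.151 CPM. Gpr1, a chemerin receptor, read 120 and 85.7 CPM in fat pad against at most 2.04 elsewhere. Ccrl2, a chemerin-binding relative of the atypical receptors, was not called in fat pad comparisons, at 9.41 and 7.03, 19.1 and 15.3, and 3.98 and 9.11 CPM. Of 10 integrin and adhesion genes, 8 were higher and 1 lower than in muscle (Itga4, named after its value was seen, at 5.35 and 7.36 against 49.5 and 47.7 CPM) and 6 higher and 1 lower than in tendon, with Sele, the endothelial E-selectin, at 0.752 and 1.31 CPM in fat pad, 0 counts in muscle, and 4.44 and 1.24 CPM in tendon. Of 9 tested inducers, 4 were higher and 1 lower than in muscle, and 3 and 2 than in tendon; Tnf, a cytokine that induces many chemokines, read 0.653 and 1.57, 0.196 and 0.154, and 0.258 and 0.137 CPM and was called over muscle alone. Of 6 genes that trim or hold chemokines, 2 were higher and 2 lower than in muscle, and 1 and 3 than in tendon, shares near those of all genes against muscle; the heparan sulfate enzyme Hs6st1 read 4.52 and 3.36, 52.7 and 58.2, and 31.7 and 42.1 CPM.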

How the data were processed

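Gene expression was measured by RNA-seq in 6 mouse libraries, 2 per tissue. For each tissue the authors deposited whole-number gene counts (20516 genes for fat pad, 17120 each for muscle and tendon) and a TPM table, per the file headers; Bowtie2, RSEM 1.3.1, DESeq2 1.4.5 and GRCm39 are named in the submitters' processing notes, without roles. How reads were counted, with what strand setting, annotation and filter, is not given in the sources used here. In the counts of muscle and tendon the value 4 occurs 633 and 641 times, against 291 and 253 for 3, and no sample column was left unused. The authors' files name 18924 of the genes, a names table a further 1740, and 8 have no symbol.

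The 16964 genes in all 3 count tables were joined, low-count genes were removed with edgeR's default filter, and 15856 were tested with edgeR 4.0.16 (TMM, quasi-likelihood, 1 factor for tissue over 6 libraries; biological coefficient of variation 0.336). SE is the absolute log2 fold change over the square root of F. Benjamini-Hochberg adjustment ran over all tested genes. Alternatives were size factors, library totals, no filter, DESeq2 1.42.0, limma 3.58.1 on the TPM columns (pseudocounts 1 and 0.1, mean TPM of at least 0.1 in a tissue), a replicate block, 2 tissues only and leaving out each library. Scripts were tested on simulated data. A member is described with all its values at a mean of at least 1 CPM in a tissue, or if called with at least 0.5 CPM. Statistics are given per comparison mainly for the called member of largest change in each role group. They also cover, in most cases, that of highest CPM (added after values were seen) and uncalled members of at least 5 CPM. Other members' calls are given with CPM only. Ligand-receptor groups, pathway lists and marker lists were chosen with earlier results of these data known, and so were the members. Library pairs used a prior count of 2. Length-scaled values use lengths implied by the fat pad TPM and counts. Shared 50-base stretches come from GENCODE M21 transcripts and promoters from RefSeq (GRCm38.p6, entries for 43 members), which is not the build of the counts, so no file coordinates were combined with them. 1 member is counted in the totals but is not reported here.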

Additional observations from a re-analysis of the deposited data

Results flagged for a closer look

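The count tables of muscle and tendon do not list Cxcl3 or Cxcl5, yet the authors' TPM columns of these tissues hold values for both, which no comparison above uses. Cxcl3 had a TPM of 0.294 in tendon library 2, above the 0.0654 TPM that a count of 0 would allow there. Cxcl5, a neutrophil attractant, had a TPM of 0.254 in muscle library 1 (limit 0.0830), 0.407 in tendon library 1 (limit 0.0950) and 4.18 in tendon library 2 (limit 0.0858). In the fat pad, where both were counted, their TPM was 0.816 and 0.909 in library 1 and 0 in library 2.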

How the results depend on the processing

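With 2 libraries per tissue, a call rests on few values; a lone library left in a tissue was assumed to vary like the others. Genes called higher in fat pad than in muscle (30) ran from 18 to 33 on leaving out 1 library, and lower (1) from 1 to 4; against tendon 17 to 26 (26) and 3 to 5 (5); tendon over muscle 0 to 8 higher (4) and 0 to 1 lower (2), with 0 of either without either muscle library. The TPM columns gave, for pseudocount 1, 0.1 and 1 without a filter, 20, 19 and 20 higher and 7 lower against muscle, 13, 9 and 12 higher and 11 lower against tendon, and 13, 8 and 13 higher and 0 lower for tendon over muscle. DESeq2 called 3 lower against muscle and 4 lower in tendon than in muscle. Library totals gave 7 higher and 0 lower for tendon over muscle, the 2 tissues alone 8 and 1, and no filter 0 lower. Library totals moved the median gene by 0.51, -0.21 and 0.73 log2 units. With a replicate block 3 were lower against muscle and 0 lower for tendon over muscle. Same-numbered libraries did not deviate together (correlations -0.03, 0.00 and -0.17 over genes). Tissues of the same animal need not deviate in the same genes, so these values cannot show whether the libraries are paired. Crossing the tendon numbers, tried after seeing the data, called 5 higher and 2 lower. At a minimum of 20 counts, 7 members in muscle and 10 in tendon were 2-fold apart. Signs turned, among values not called, in the TPM columns for Ccl25 (-0.0337, -0.0385 and -0.0337) and Cxcl12 (-0.28 to -0.29) against muscle, Ackr1 against tendon (-0.58 to -0.59), and Ccl27a (0.21 to 0.25), Ccl9 (0.98 to 1.01) and the called Ccl6 (0.93 to 0.95) for tendon over muscle. Library totals turned Ccl11 (0.49), Ccl27a (0.40) and Ccl9 (0.32). Leaving out 1 library gave -0.78 to 0.11 for Cxcl12 against tendon, positive without fat pad library 1, and for tendon over muscle -0.038 to 0.28 for Ackr3, negative without muscle or tendon library 1, and -0.57 to 0.57 for Ccr2, negative without muscle library 2 or tendon library 1. The causes were not tested.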
